A study of Mus musculus with 3 samples.

Results

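The genes described here make, fold, modify and export collagen in the endoplasmic reticulum (ER), or signal when folding there falls behind. The list holds 35 genes, chosen by name, of which 33 were measured among 19938 named genes. Fkbp10 and Loxl2 were not analysed here. A gene was measured when it had a probe set annotated with exactly 1 gene symbol, and of several probe sets the one with the highest mean over the 3 arrays stood for the gene. The cells were mesangial cells, contractile cells that lie between the capillaries of the kidney glomerulus, with the extraglomerular mesangium also named as their source. They came from kidneys of adult male CD-1 mice (stage TS28) carrying the transgene Tg(Meis1-EGFP)FO156Gsat, in which a bacterial artificial chromosome drives green fluorescent protein from Meis1 regulatory sequence, so the sorted cells are those in which that sequence was active.

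Each of the 3 samples was 1 kidney, not pooled, and 1 array. Glomeruli were freed from cortex with collagenase at 37°C and caught on a mesh, and their cells were parted with trypsin and sorted by fluorescence. All 3 samples form 1 untreated group, and with no other population to set beside it the study allows no contrast of conditions. Whether each kidney was from a mouse of its own is not stated, so SDs describe these samples and may be partly technical. In sorted cells like these, fewer cells of a type and less RNA per cell cannot be told apart.

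Collagen chains are threaded into the ER, where prolyl and lysyl hydroxylases modify them, chaperones and isomerases guide the triple helix, and large COPII carriers take the procollagen to the Golgi. Outside the cell the propeptides of fibril-forming collagens are cut off, and lysyl oxidases cross-link fibrils or sheets. When unfolded protein builds up, the sensors IRE1, PERK and ATF6 start the unfolded protein response, which raises chaperones through DNA elements such as the ER stress response element (ERSE). Mesangial cells secrete the matrix of the mesangium, which includes type IV collagen.

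Because ERSE and its variant ERSE-II link these genes to that response, their promoters were searched for both. The ERSE was searched as CCAAT and CCACG with 9 bases of any kind between them, and the ERSE-II as ATTGG and CCACG with 1 such base between them. Both strands were read, in windows from 250 bases before to 50 bases after each RefSeq gene start (build GRCm38.p6). Promoters were present for 27 of the 35 genes. An ERSE lay in 3 of them, those of the lectin chaperone genes Calr and Canx and the disulfide isomerase gene Pdia6, and an ERSE-II in that of Herpud1, which takes part in the degradation of misfolded ER proteins. Over all 27025 genes with a promoter window the share with an ERSE was 0.137% (37 genes), and that with an ERSE-II was 0.0444% (12 genes). No gene of the list held both. The sequences are shown because the matched genes are followed through the samples further on. Each reads 5′ to 3′ along the strand of the motif, with the fixed letters of the motif in capitals and up to 20 bases on either side.
Calr: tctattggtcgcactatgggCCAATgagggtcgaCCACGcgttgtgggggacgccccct
Canx: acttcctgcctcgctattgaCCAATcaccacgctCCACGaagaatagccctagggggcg
Pdia6: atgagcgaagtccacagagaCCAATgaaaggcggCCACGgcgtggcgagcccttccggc
Herpud1: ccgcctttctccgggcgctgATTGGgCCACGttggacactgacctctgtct
The Calr motif lay at chr8:84847075-84847093 on the plus strand, against the direction of the gene, and ended 144 bases before the gene start. The Canx motif lay at chr11:50325800-50325818 on the minus strand, 127 bases before the start. The Pdia6 motif lay at chr12:17266491-17266509 on the plus strand, 80 bases before the start, and the Herpud1 motif at chr8:94386377-94386387 on the plus strand, 42 bases before it. All 4 lie upstream of the RefSeq gene start. A match describes letters only and is not evidence of binding.

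All values that follow are log2 probe set signals as deposited, and means are given ± SD over n = 3 samples. A gene was called above background when its value passed, on each of the 3 arrays, the 95th percentile of 1267 reference probe sets. These were of families taken here as silent, without a check of single genes (receptors for odours, pheromones and trace amines, and the hair proteins of the Krtap family). These silent-gene thresholds were 7.48, 7.46 and 7.41 in samples 1, 2 and 3. Since probe sets bind with different strength, values of different genes are not ranked against each other. Of the 33 measured genes, 29 lay above the threshold (87.9%), beside 58.0% of all 18687 named genes outside the silent families. A stricter threshold, higher by 1, was passed by 23 of the 33 (69.7%), beside 32.7% of all named genes. Of the silent genes themselves, 4.72% passed the threshold. The 4 genes below it were the prolyl hydroxylase subunit gene P4ha3, the lysyl oxidase genes Lox and Loxl4, and the propeptidase enhancer gene Pcolce2.

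Many genes carried an identical value on several arrays, which limits what an SD can say. Of the 29 genes above the threshold, 5 had 1 value on all 3 arrays (17.2%), beside 39.4% of all named genes above it, and 14 had 3 different values (48.3%), beside 29.7%. An SD of 0 is therefore no measure of precision here. All 7 mesangial marker genes, Itga8, Pdgfrb, Gata3, Des, Ptn, Agtr1a and Cspg4, lay more than 1 above the threshold in every sample. Of markers of other cells, 7 of 7 endothelial, 3 of 5 podocyte, 3 of 6 proximal tubule, 4 of 5 later tubule, 2 of 5 fibroblast, 2 of 6 macrophage and 3 of 4 smooth muscle genes passed the threshold. With the threshold raised by 1, 4 endothelial, 1 podocyte, no tubule, 1 fibroblast, no macrophage and 3 smooth muscle genes remained. The share of all named genes was then 32.7%. How much of the signal of the genes below came from such cells was not tested.

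**Figure D1:**
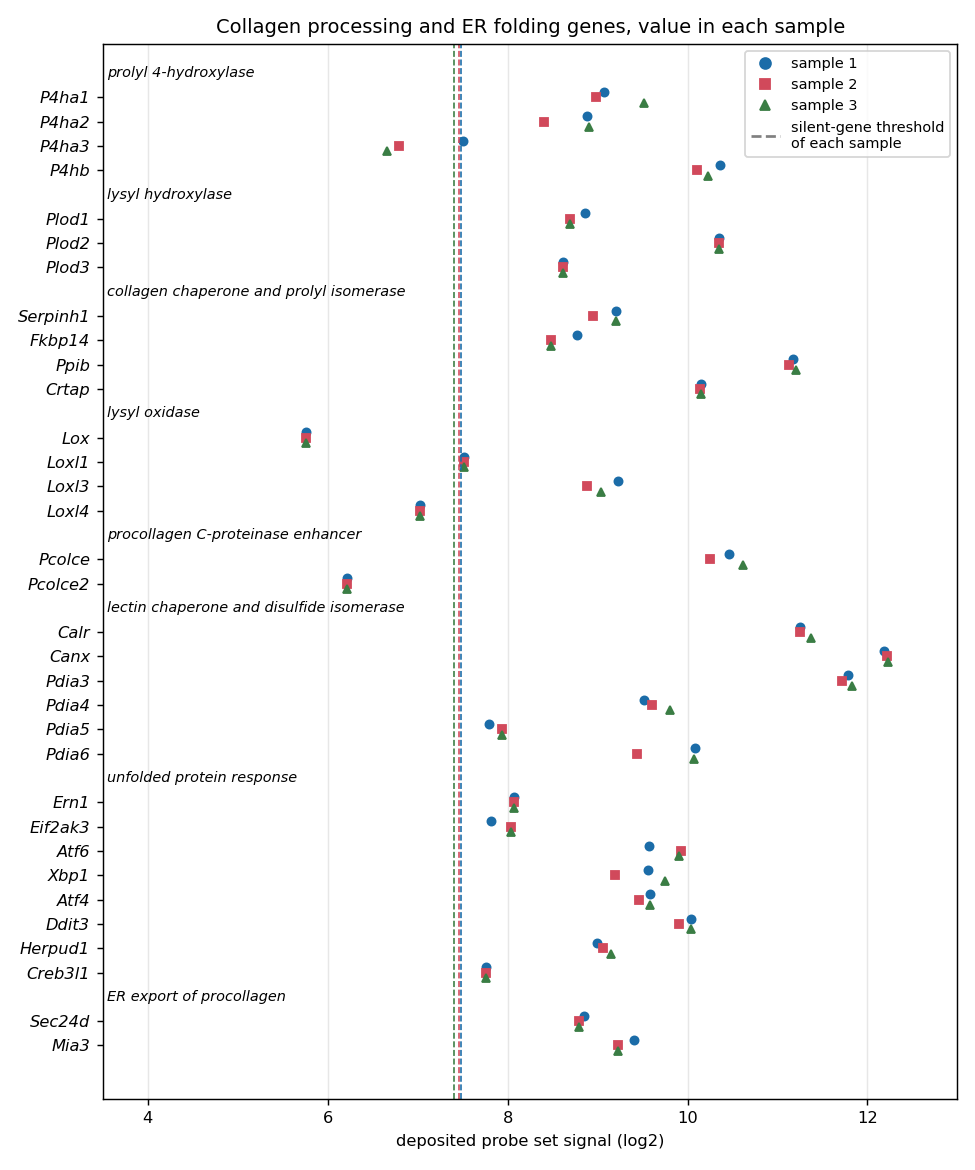
Deposited log2 signal (horizontal axis) of the 33 measured genes, grouped by role, with 1 point for each of the 3 samples and dashed lines at the silent-gene threshold of each sample. All points of 29 genes lie to the right of the lines; Lox, Loxl4 and Pcolce2 lie to the left in every sample, and P4ha3 crosses its line only in sample 1.

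The prolyl 4-hydroxylases, which make the hydroxyproline that stabilises the collagen helix, were present as 2 of 3 catalytic subunits with the shared partner. P4ha1, for the widely expressed catalytic subunit, had 9.08, 8.98 and 9.51 in samples 1, 2 and 3. P4ha2, for a second catalytic subunit, had 8.88, 8.41 and 8.91. Sample 2 was lowest for both genes, and they were 2 of the 4 genes above the threshold whose samples differed by 0.5 or more. P4ha1 spanned 0.53, a 1.44-fold difference, and P4ha2 spanned 0.50, a 1.42-fold difference. P4hb encodes protein disulfide isomerase, which is also the non-catalytic subunit of the enzyme, and had 10.36, 10.11 and 10.22. It too was lowest in sample 2. The remaining catalytic subunit gene, P4ha3, had 7.51, 6.79 and 6.66, so it passed the threshold in sample 1 alone and was not called. Its mean was 6.99 ± 0.46.

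All 3 lysyl hydroxylases, whose products prepare lysines for cross-links, lay more than 1 above the threshold. Plod1 had 8.86 in sample 1 and 8.70 in samples 2 and 3. Plod2, whose product hydroxylates the telopeptides that fix the type of cross-link, had 10.35 in all 3 samples. Plod3, whose product also adds sugars to hydroxylysine and is needed for type IV collagen, had 8.62 in all 3. Deposited values thus differed for Plod1 alone, where sample 1 was higher by 0.16. The ties of Plod2 and Plod3 do not show that their RNA was equal in the samples.

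The collagen chaperones and prolyl isomerases were also all above the threshold, with 4 of 4 measured genes. Serpinh1, for the collagen-specific chaperone HSP47, had 9.21, 8.95 and 9.21, with sample 2 lower by 0.26. Ppib, for cyclophilin B, had 11.17, 11.13 and 11.21, and Crtap, for the cartilage-associated protein of the prolyl 3-hydroxylation complex, had 10.15, 10.14 and 10.15. Those samples lay within 0.07 and 0.01 of each other. Fkbp14, for another ER prolyl isomerase, had 8.77 in sample 1 and 8.48 in samples 2 and 3, so its high sample was a different one from that of P4ha1.

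Enzymes that act outside the cell were divided. Loxl3, a lysyl oxidase family gene, had 9.23, 8.88 and 9.04 and was the single measured family member more than 1 above the threshold. Loxl2 of this family was not measured. Loxl1, whose product is best known for cross-linking elastin, had 7.52 in all 3 samples and passed the threshold of sample 1 by only 0.04. The family's founding member Lox was at 5.76 and Loxl4 at 7.03, both below the threshold and each identical on the 3 arrays. A further Loxl4 probe set gave 7.07, 6.95 and 6.99, also below it. The enhancers of procollagen C-proteinase split in the same way. Pcolce had 10.46, 10.25 and 10.62, with sample 2 lowest and sample 3 higher than it by 0.36, whereas Pcolce2 had 6.21 in all 3 samples.

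General folding factors of the ER were above the threshold without exception. The lectin chaperones, which hold newly made glycoproteins, gave 12.18, 12.22 and 12.23 for the membrane-bound calnexin gene Canx and 11.25, 11.25 and 11.37 for the soluble calreticulin gene Calr. Pdia3, for the disulfide isomerase that works with them, had 11.78, 11.72 and 11.83. These samples lay within 0.12 of each other. The isomerase gene Pdia4 had 9.51, 9.60 and 9.80, and Pdia5 had 7.79 in sample 1 and 7.94 in samples 2 and 3, less than 1 above the threshold. A further Pdia4 probe set gave 6.51, 7.17 and 6.94, below the threshold in every sample, so the call for Pdia4 rests on 1 of its 2 probe sets. Pdia6 had 10.08, 9.44 and 10.07 and showed the largest spread among the 29 genes. Its sample 2 stood apart, 1.55-fold below sample 3, while samples 1 and 3 nearly coincided.

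The unfolded protein response was represented in all its branches, with 8 of 8 genes above the threshold and 5 above it when raised by 1. Among the sensors, Atf6 had 9.58, 9.93 and 9.91, Ern1, for IRE1, had 8.07 in all 3 samples, and Eif2ak3, for PERK, had 7.81 in sample 1 and 8.04 in samples 2 and 3. Sample 1 was the low one for Atf6 and Eif2ak3, and the latter lay, like Ern1, less than 1 above the threshold. The effectors showed another pattern. Xbp1, whose mRNA is spliced by IRE1, had 9.56, 9.19 and 9.75, Atf4, whose translation PERK favours, had 9.58, 9.46 and 9.58, and Ddit3, for the stress factor CHOP, had 10.04, 9.91 and 10.04. Sample 2 was lowest for all 3. Sample 3 exceeded sample 2 by 0.56 for Xbp1, a 1.48-fold difference, but by 0.12 for Atf4 and 0.13 for Ddit3. The array measures Xbp1 as a whole and does not separate its spliced form. Herpud1 had 8.99, 9.06 and 9.15, highest in sample 3. Creb3l1, for a membrane-bound transcription factor of bone collagen secretion, had 7.76 in all 3 samples, less than 1 above the threshold.

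Both export genes lay more than 1 above the threshold and were highest in sample 1. Sec24d, for a COPII coat subunit, had 8.85 in sample 1 and 8.79 in samples 2 and 3. Mia3, for the TANGO1 receptor that loads procollagen into carriers, had 9.40 in sample 1 and 9.22 in the others. The step from sample 1 to the other samples was 0.06 for Sec24d and 0.18 for Mia3.

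Across the list, sample 2 was most often the low one. Of the 29 genes above the threshold, 13 had a value in sample 2 below both other samples (44.8%), beside 15.4% of all named genes above it. Another 6 were lowest in sample 1, beside 18.8%, and none in sample 3, beside 10.8%. The highest value fell in sample 3 for 11 genes (37.9%), beside 16.9% of all named genes, in sample 1 for 7, beside 17.3%, and in sample 2 for Atf6 alone, beside 11.1%. Genes of the list had fewer tied values than other genes, as given above. Among genes with 3 different values, 10 of 14 were lowest in sample 2 (71.4%), beside 38.9% of all such genes, and 10 of 14 were highest in sample 3, beside 40.1%. Among genes more than 1 above the threshold, 12 of 23 were lowest in sample 2, beside 21.0%, and 10 of 23 highest in sample 3, beside 21.9%. The differences were mostly small. Sample 2 was lower by at least 0.1 than both other samples for 9 of the 29 genes, beside 6.82%, and sample 3 was higher by at least 0.1 for 5, beside 7.34%. These 9 were P4ha2, P4hb, Serpinh1, Loxl3, Pcolce, Pdia6, Xbp1, Atf4 and Ddit3.

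**Figure D2:**
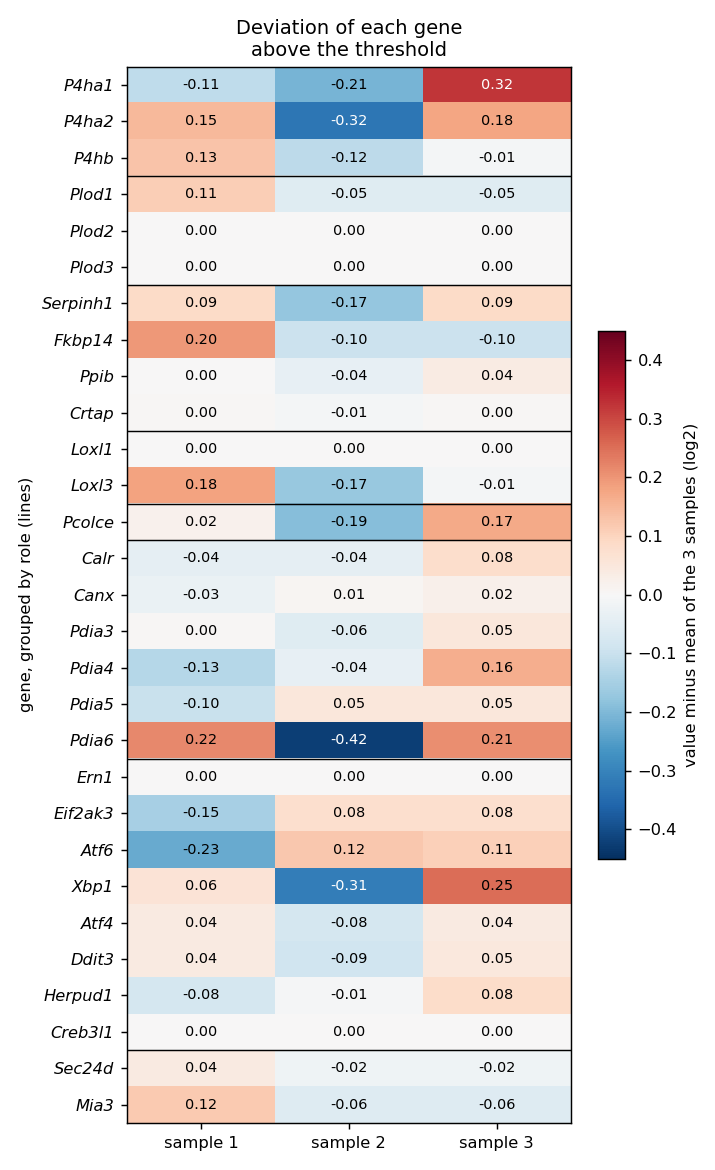
Value minus the mean of the 3 samples (log2, colour and printed number) for the 29 genes above the threshold, in rows grouped by role, with samples in columns. Blue cells gather in sample 2, down to -0.42 for Pdia6. For 6 genes, Atf6 and Eif2ak3 among them, the lowest value is in sample 1.

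The shift of the list as a whole was small. The median over the 29 genes of the deviation from each gene's mean was -0.04 in sample 2 and 0.04 in sample 3, and it was 0 in both samples over all named genes above the threshold. Taken from each gene's own median it was 0 in every sample, a measure that stays at 0 unless most genes shift one way. The median range, the highest minus the lowest sample, was 0.16 for the 29 genes and 0.03 for all named genes above the threshold. It was 0.06 without sample 2 and 0.07 without sample 1, beside 0.01 and 0 for all named genes. A range of 0.5 or more was reached by 4 of the 29 genes, P4ha1, P4ha2, Pdia6 and Xbp1 (13.8%), beside 4.34% of all named genes above the threshold. All 4 had their lowest value in sample 2, and without sample 2 none of them reached 0.5, while without sample 3 Pdia6 alone did. Over all named genes above the threshold the shares were 2.54% without sample 2 and 2.38% without sample 3. With 3 samples of 1 group no test of a difference between samples was possible.

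**Figure D3:**
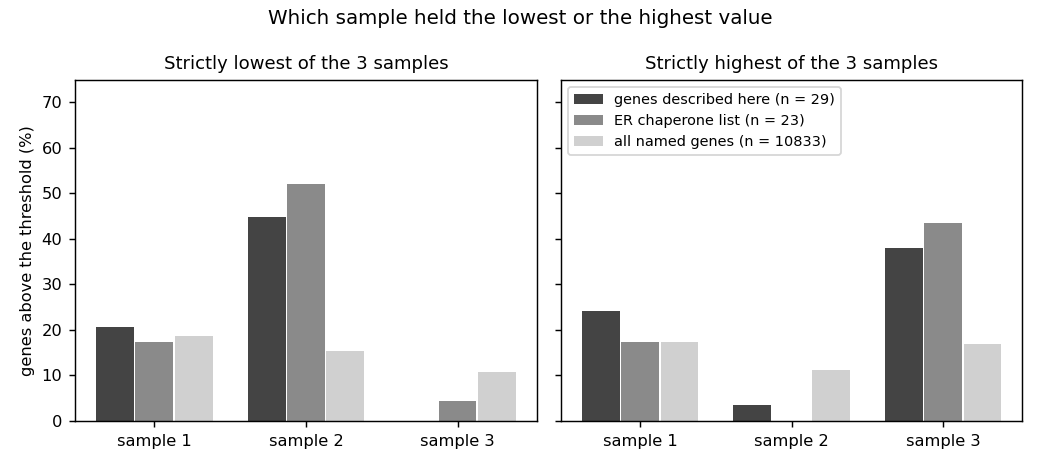
Share of genes above the threshold (percent, vertical axis) whose value was strictly lowest (left) or strictly highest (right) in each sample, for the 29 genes described here, 23 ER chaperone genes and 10833 named genes. The dark and middle bars exceed the light bar for lowest in sample 2 and for highest in sample 3.

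Related genes of the same pathways, listed by role but with earlier results of these data known, were set beside these. Of 15 measured genes of collagen modification and propeptide cleavage, 10 lay above the threshold (66.7%), not far from the 58.0% of all named genes that stands beside each such count here. The prolyl 3-hydroxylase gene P3h2 had 10.88, 10.88 and 11.08, Fkbp9, for an ER prolyl isomerase, had 9.58 in all 3 samples, and P3h3 had 9.55, 9.27 and 9.33. Not above it were the collagen galactosyltransferase gene Colgalt2 at 5.89 ± 0.05, the tolloid-like proteinase genes Tll1 at 6.48 and Tll2 at 6.77, Adamts14 at 7.45 and Fkbp11 at 6.79 ± 0.04. Bmp1, for the C-proteinase that Pcolce enhances, was above it at 9.22 ± 0.02 and is named for that link, after its values were seen. Of 15 collagen chains 14 lay above the threshold (93.3%), with Col4a6 at 7.22 below it. With the threshold raised by 1, only 5 of the 15 remained, beside 32.7% of all named genes. Among the chains, Col4a1 had 9.89, 9.69 and 10.07, Col4a2 9.65, 9.38 and 9.65, and Col6a3 9.92, 9.70 and 9.70. Col4a1 and Col4a2 were the 2 of 14 collagen genes above the threshold with their lowest value in sample 2 (14.3%), near the 15.4% of all named genes, and 11 of the 14 had 1 value on all 3 arrays.

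ER chaperones and oxidative folding factors passed in 23 of 24 cases (95.8%), the exception being the isomerase gene Pdia2 at 6.36. Hsp90b1, for the chaperone GRP94, had 13.03, 13.01 and 13.07, the prolyl isomerase gene Fkbp2 12.25, 12.05 and 12.31, and the co-chaperone gene Dnajc3 11.45, 11.31 and 11.50. Of the 23 genes above the threshold 12 were lowest in sample 2 (52.2%), beside 15.4% of all named genes, and 10 highest in sample 3 (43.5%), beside 16.9%. None was highest in sample 2, beside 11.1%. Of the 14 with 3 different values, 11 were lowest in sample 2, beside 38.9%, and 10 highest in sample 3, beside 40.1%. A range of 0.5 or more was reached by 3 of the 23, beside 4.34% of all named genes. Hspa5, for the master chaperone BiP, had 11.07, 10.84 and 11.40. Manf, for a secreted ER stress factor, had 9.92, 9.91 and 10.42, and Creld2, for an ER stress-induced protein, had 9.62, 9.20 and 9.76. Sample 3 was highest and sample 2 lowest for each of them, as for Xbp1.

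Partners of the unfolded protein response and of ER-associated degradation passed in 16 of 21 cases (76.2%), with Sel1l at 10.03, 10.03 and 10.08, Derl2 at 9.78, 10.09 and 10.19 and Edem3 at 9.86, 9.98 and 9.98. Not above the threshold were Trib3 at 7.46, Asns at 6.26 and Sesn2 at 7.47 ± 0.03, which are known targets of ATF4, and Ern2 at 7.35 and Derl3 at 7.30. Other stress-induced genes of the same list did pass, Ppp1r15a at 8.63 ± 0.06, more than 1 above the threshold, and Atf3 at 8.39 ± 0.06 and Chac1 at 8.11 ± 0.01, less than 1 above it in at least 1 sample. These 3 are named after their values were seen. Genes known to follow ATF4 thus lay on both sides of the threshold beside Ddit3, but Trib3 and Sesn2 lay close to it. Trib3 passed on 1 array and Sesn2 on 2, with lowest margins of -0.02 and -0.03, whereas that of Asns was -1.22. Of 19 COPII and cargo export genes 16 passed (84.2%), with Sar1b at 10.78, 10.75 and 10.60, Sar1a at 10.32, 10.55 and 10.55 and Tfg at 10.37. Mia2, a relative of Mia3, was at 5.82 ± 0.08, Klhl12, for a ubiquitin ligase adaptor of large carriers, at 7.37 ± 0.11 and the retrieval receptor gene Kdelr3 at 6.38. In the unfolded protein response and COPII lists, 2 of 16 and 1 of 16 genes above the threshold were lowest in sample 2 (12.5% and 6.25%), near or below the 15.4% of all named genes.

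Genes with an ERSE in the promoter window, followed through the samples after their values were seen, gave a narrower view. Apart from Calr, Canx and Pdia6, 7 of the 80 related genes with a promoter window held one. The site in Hspa5 is shown for comparison with those above, as the textbook target of the response, along with that of Creld2 and that of Dnajc3.
Hspa5: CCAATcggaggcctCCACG
Creld2: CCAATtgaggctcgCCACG
Dnajc3: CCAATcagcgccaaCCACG
These lay at chr2:34772025-34772043 on the plus strand for Hspa5, at chr15:88819520-88819538 on the minus strand for Creld2 and at chr14:118937827-118937845 on the plus strand for Dnajc3. The other 4 genes were Hsp90b1, Ero1b, Syvn1 and Derl3. Of the 10 listed genes with an ERSE, 9 lay above the threshold and Derl3 did not. Sample 3 was highest for 8 of the 9, beside 16.9% of all named genes above the threshold, and for 7 of the 8 with 3 different values, beside 40.1% of all such genes. The trait was not confined to them, since P4ha1, Pcolce and Xbp1, whose windows held no ERSE, were also highest in sample 3. Of genes with 3 different values, sample 3 was highest for 10 of 14 described here, 10 of 14 ER chaperone genes and 2 of 4 unfolded protein response partners. These counts include the genes with an ERSE, so they cannot say whether the trait was more frequent in genes with an ERSE than in the rest of their lists. The exception among the 9 was Pdia6, where sample 1 had 10.08 and sample 3 had 10.07. For Canx, however, the samples lay within 0.05 of each other, for Hsp90b1 within 0.07 and for Ero1b, less than 1 above the threshold, within 0.08. Dnajc3 had 11.45 in sample 1 and 11.50 in sample 3. Sample 3 thus led by less than 0.1 for Canx, Hsp90b1, Ero1b and Dnajc3. It led by at least 0.1 for Calr, Creld2, Hspa5 and Syvn1. Of the genes with an ERSE outside these lists, 6 lay above the threshold. Among them Alg12, at 8.10, 7.94 and 8.10, was lowest in sample 2. Its site is the same as that of Creld2, so this site is counted on both sides. Of the 6, 3 had 1 value on all 3 arrays and 3 had a value shared by 2 arrays, as Calr did among the listed genes. Sample 3 alone was highest for 0 of these 6, beside 16.9% of all named genes above the threshold. The 3 with 1 value on all arrays could not differ, so few genes are left for a contrast with the listed genes.

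**Figure D4:**
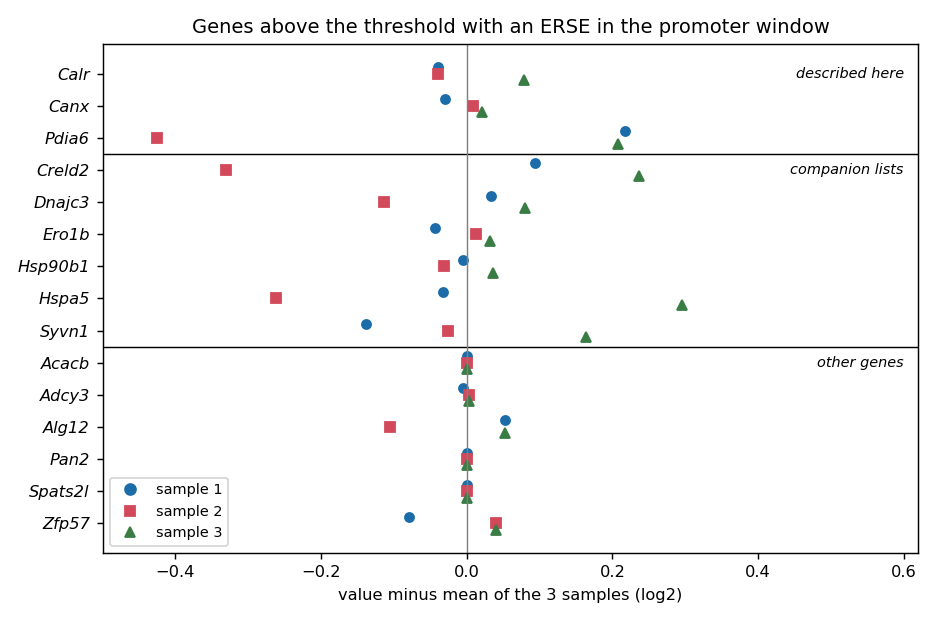
Value minus the mean of the 3 samples (log2, horizontal axis) for the 15 genes above the threshold whose promoter window holds an ERSE, with 1 point per sample. In 8 of the upper 9 genes the sample 3 triangle lies farthest right, and each of the 6 lower genes has at least 2 samples with the same value.

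Other gene groups also differed between these samples. Several markers of other cells were lowest in sample 2 and highest in sample 3. Acta2 had 10.64, 10.50 and 10.98, Myh11 10.44, 10.19 and 10.70, and Tagln 8.87, 8.76 and 9.14, so all 3 above the threshold were lowest in sample 2 and highest in sample 3, and Cnn1, not above it, was not. The endothelial genes Ehd3, at 10.53, 10.14 and 10.58, and Emcn, at 10.31, 10.23 and 10.59, shared this order, as 2 of 7 endothelial genes above the threshold. Tek, at 10.90, 10.76 and 10.67, was instead lowest in sample 3, and Plvap, at 9.33, 9.39 and 9.33, was highest in sample 2. Pecam1, Cdh5 and Kdr, less than 1 above the threshold, had tied values. The podocyte gene Synpo, at 8.30, 8.08 and 8.39, was also lowest in sample 2 and highest in sample 3, as 1 of 3 podocyte genes. It lay less than 1 above the threshold. Wt1, the podocyte gene more than 1 above it, had 10.24, 10.13 and 10.07 and was lowest in sample 3. The fibroblast markers above the threshold moved the other way, with Pdgfra at 11.11, 11.32 and 11.07 and Dcn at 7.56, 8.21 and 7.76, both highest in sample 2. The mesangial markers were divided, with 2 of 7 lowest and 3 of 7 highest in sample 2. Of the tubule genes, Umod had 9.51, 9.18 and 8.22, Calb1 had 7.72, 8.66 and 8.49, and Kap, which was not above the threshold in sample 3, had 8.44, 8.51 and 7.17. The part of these cell types, or of the preparation of each sample, in the low values of sample 2 was not tested.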

How the data were processed

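Per the labels' protocols, RNA of each of the 3 samples went through 1 round of WT-Ovation Pico amplification and biotin labelling before hybridisation to its own array. Per the submitters' processing notes, the authors used Affymetrix Expression Console for the deposited log2 probe set signals. How it corrected background and summarised probe sets, and its version, was not given in the sources used here. Base 2 was inferred from the highest value, 14.39. Array medians were 7.53, 7.56 and 7.54, and centring or scaling beyond this is unknown. Of 35557 probe sets, 14310 (40.2%) had 1 value on all 3 arrays. The number of arrays limits the precision.

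Values were used as deposited. The platform annotation listed 23410 probe sets, 21789 with 1 symbol, 1621 with several (which named no gene), and 12147 were not listed. Symbols were updated by Entrez number with RefSeq (GRCm38.p6), which matched 21698. Scripts ran in Python 3.11.15 with pandas 2.3.3 and were tested on simulated data. Promoter sequences are RefSeq's. With 1 group, counts stand beside the same share over all named genes, without a test. The genes and lists were chosen with earlier results of these data known. All measured members are named; of each related list, the 3 genes with the highest mean, those not above the threshold where 5 or fewer, and those with a range of 0.5 or more. Other genes, such as those with an ERSE or the markers given by value, were chosen after their values were seen.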

Additional observations from a re-analysis of the deposited data

How the results depend on the processing

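The count of 29 genes above the threshold stayed at 29 with the 90th percentile, with olfactory receptors alone, with the mean of the arrays, with the mean of all probe sets of a gene, with centred arrays and without each sample in turn. Over all named genes the share was 58.0% as reported, 68.8% with the 90th percentile, and between 57.4% and 59.9% with the other settings just named. The count was 24 with the 99th percentile, beside 35.3% of all named genes, without Creb3l1, Eif2ak3, Ern1, Loxl1 and Pdia5. It was 23 with the threshold raised by 1, beside 32.7%, where P4ha2 was lost too. The count of related genes was 79 of 94, beside 58.0% of all named genes. It ranged from 53 with the threshold raised by 1, beside 32.7%, to 86 with the 90th percentile, beside 68.8%. The median range of 0.16 was 0.0605 without sample 2, 0.0749 without sample 1 and 0.1201 without sample 3. The 4 genes with a range of 0.5 or more became 0 without sample 2, 1 without sample 3 and 4 without sample 1. Beside these counts stood 2.54%, 2.38% and 1.72% of all named genes above the threshold. The median deviation from each gene's own median moved by at most 0.02, but it stays near 0 unless most genes shift one way and says nothing about stability.

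The counts of genes lowest in sample 2 and highest in sample 3, and their alternatives, were chosen after the data were seen. With arrays centred on their medians, 23 genes in place of 13 were lowest in sample 2, but so were 72.3% of all named genes, because this shift breaks the ties between identical values. With differences of at least 0.1, 5 genes in place of 11 were highest in sample 3. Sample 3 exceeded sample 2 in 17 genes, beside 26.6% of all named genes, and exceeded sample 1 in 14, beside 29.4%. Sample 2 was below sample 1 in 17 genes, beside 26.8%. No paired analysis was possible because there was 1 group.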
